A study of Mus musculus with 7 samples.

Results

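The region described here is the centromeric flank of the captured locus, mouse chromosome 1 from 71.00 to 73.60 Mb (mm9), which lies outside every inversion of the study. It was taken as all pairs of 10 kb bins with both bins in this interval, by position alone and without use of any measured value. The interval holds 260 of the 1000 bins of the captured region, and 33930 of its 500500 bin pairs in each of 7 contact maps. The study placed serial inversions at the Epha4 locus and measured chromatin contact by capture Hi-C, in which ligated DpnII fragments are enriched for a 10 Mb region before sequencing. The limb bud libraries were WT, the inversions Inv1, Inv2, Inv3 and Inv4, and Inv1DelCTCF, which adds to the Inv1 chromosome a deletion that the labels name after CTCF. Each came from forelimb and hindlimb buds of 10 pooled embryos at E11.5. The seventh library, Inv1 ESC, came from mouse embryonic stem cells that carry Inv1. The genotype field reads only WT or mutant, the cell type field reads G4 ESC for every library, and the tissue field reads limb bud also for the stem cells, so alleles and tissues rest on the titles and the design text. Contact maps hold no expression, so the tissue was not checked against marker genes.

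Mammalian chromosomes fold into domains whose sequences contact each other more often than they contact sequence next door. Many borders between domains hold sites bound by CTCF, a zinc finger protein at which the cohesin ring halts as it extrudes a chromatin loop. A cohesin halted at one anchor while the other side of the loop keeps growing is known to leave a stripe of raised contact, and 2 such anchors facing each other leave a focal spot. The maps measure contact only, and no CTCF or cohesin binding was analysed here.

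There was 1 library per condition, so conditions could not be tested against each other and differences have no replicate check. Errors are counting standard errors from the read pairs recovered from the maps (± SE), and they cover counting error only. The flank held 1214852 read pairs in WT. Inv1 had 945629, Inv2 had 1045479, Inv3 had 911277, Inv4 had 813116, Inv1DelCTCF had 967941 and Inv1 ESC had 1102768. Between bins 50 kb apart the median was 79 to 120 read pairs, and between bins 1000 kb apart it was 3 or 4, so values on long distances rest on sums over many bins. The deposited Inv2, Inv3 and Inv4 maps equalled a map of whole read pairs minus the WT map times 0.423, 0.369 and 0.334, and 13.8%, 14.5% and 12.6% of their listed flank pairs were below 0. Values for these 3 maps are as deposited unless the WT share is said to be added back. Between 86.6% and 89.3% of the balanced contact of flank bins stayed within the flank.

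The flank of WT limb buds folded into 4 main domains, parted by borders at 71.60, 72.28 and 72.91 Mb, and a weaker border at 72.75 Mb divided the third of them. The domains ran for 600, 680, 630 and 690 kb, the last being cut off by the end of the interval. Borders were read from the insulation score, the log2 of the mean contact across a bin within 200 kb relative to the mean over the flank, after each pair was divided by the mean of its distance (observed over expected). The depth of a border is the rise of this score to the lower of the highest points within 300 kb on either side, and a depth of 0.2 was required. In WT the deepest border, in the bin chr1:72280001-72290000, had a depth of 2.12 ± 0.024. The border at chr1:71600001-71610000 had a depth of 1.46 ± 0.021 and the one at chr1:72910001-72920000 a depth of 1.10 ± 0.021. The border at chr1:72750001-72760000 was the shallowest, at 0.61 ± 0.017.

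**Figure D1:**
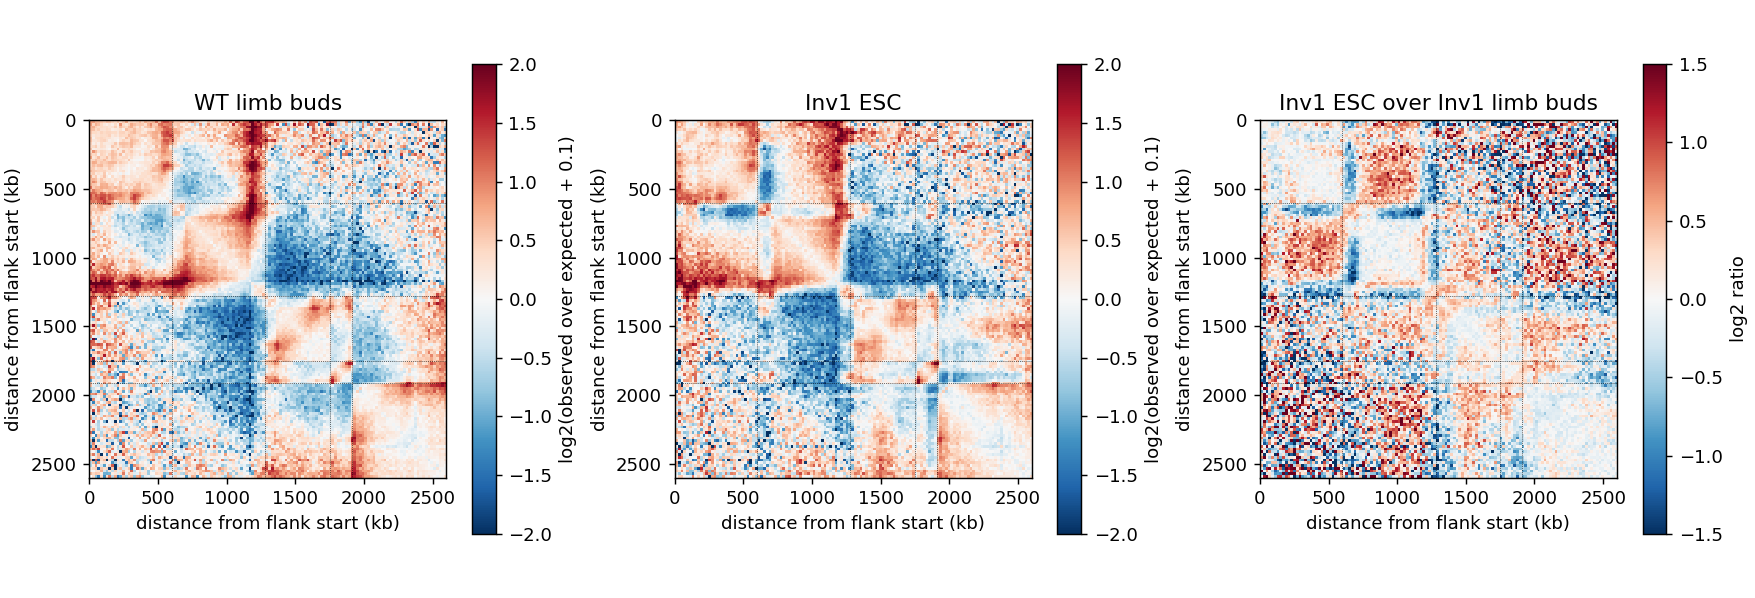
Contact between 20 kb blocks of the flank in WT limb buds and Inv1 ESC, as log2 of observed over expected contact plus 0.1, and the log2 ratio of Inv1 ESC to Inv1 limb buds. Both axes give the distance from the flank start in kb and dotted lines mark the 4 WT borders. Red blocks lie along the diagonal of the WT map, the stripe near 1170 kb runs to the flank start, and the ratio map shows a blue band at 610 to 710 kb and another beside 1250 kb.

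The main borders stood at the same place, to within 1 bin, in all 6 limb bud maps. All 4 WT borders had a counterpart within 30 kb in Inv1, Inv2, Inv3, Inv4 and Inv1DelCTCF, none more than 10 kb away. At 72.28 Mb the depths were 2.12 (Inv1), 2.06 (Inv2), 1.95 (Inv3), 1.94 (Inv4) and 2.08 (Inv1DelCTCF). At 71.60 Mb the 5 mutants had depths of 1.33 (Inv4) to 1.48 (Inv3), and at 72.91 Mb of 1.05 (Inv4) to 1.17 (Inv1), on both sides of the WT value. At 71.60 and 72.91 Mb the limb bud mutants thus lay around WT. At 72.28 Mb Inv3 (1.95 ± 0.051) and Inv4 (1.94 ± 0.054) were the shallowest against 2.12 ± 0.024 in WT, and with the WT share added back they were at 2.02 ± 0.026 and 2.02 ± 0.027. The border at 72.75 Mb varied more. Its depth was 0.50 in Inv1 and 0.52 in Inv1DelCTCF, but Inv2 had 0.30 ± 0.037, Inv3 had 0.28 ± 0.040 and Inv4 had 0.25 ± 0.039. With the WT share added back, these 3 depths were 0.45, 0.44 and 0.42, nearer to Inv1 but still under it. Inv3 had a border of its own, at 71.30 Mb, whose depth of 0.21 was just past the requirement and which was gone with the WT share added back. The number of borders depended on the size of the square: with 100 kb there were 7 in WT, of which 6 or 7 were found in each limb bud mutant, and with 300 kb there were 4 in WT, of which Inv4 kept 2, Inv3 3 and the other limb bud mutants 4.

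In the stem cells the deepest border lay 80 kb nearer the centromere, at 72.20 Mb, the only one of the 4 without a counterpart within 30 kb. Its depth was 2.06 ± 0.022, within the limb bud range of 1.94 to 2.12. The low stretch was broad, so the shift is one of its lowest point. At 72.28 Mb the score was still -1.16 ± 0.017 in Inv1 ESC. That was lower than its scores at 71.58 Mb (-0.97) and 72.92 Mb (-0.76). In WT the score at 72.20 Mb was -1.21. The border at 71.60 Mb was found at 71.58 Mb with a depth of 1.35 ± 0.021, and the one at 72.91 Mb at 72.92 Mb with 0.94 ± 0.018, below the limb bud range. The weak border at 72.75 Mb stayed in place with a depth of 0.32 ± 0.016. The stem cell position at 72.20 Mb and those of the limb buds at 72.27 to 72.29 Mb did not overlap. Since 1 stem cell library was made, and from Inv1, the tissue and the library cannot be told apart.

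**Figure D2:**
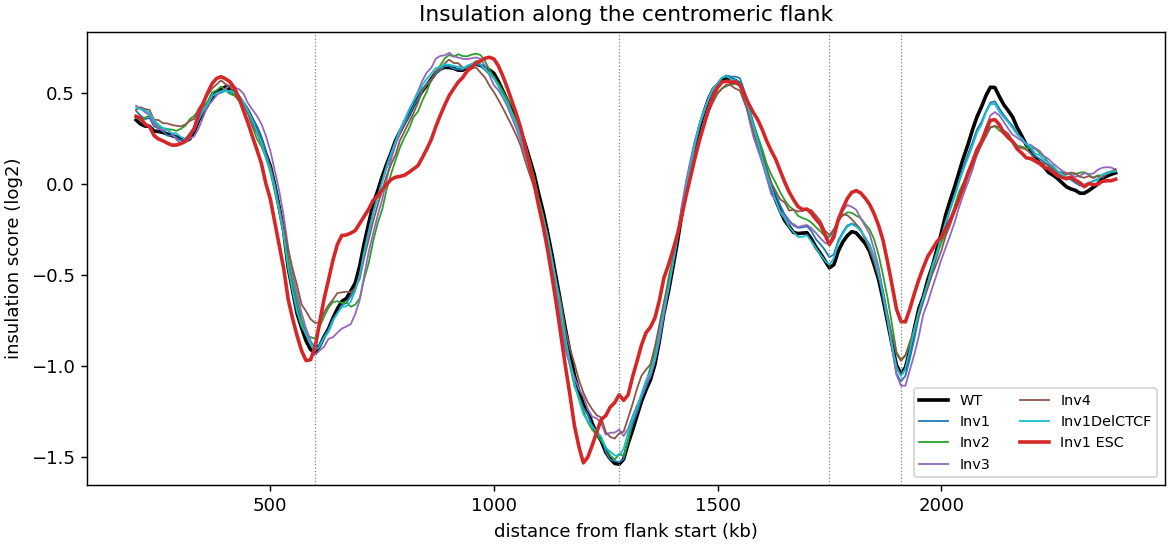
Insulation score (log2) of each 10 kb bin against its distance from the flank start in kb, for the 7 maps as deposited, with dotted lines at the WT borders. The 6 limb bud curves reach their lowest point at 1270 to 1290 kb, whereas the Inv1 ESC curve reaches it at 1200 kb.

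Contact across the borders was measured as well. Between the domains that meet at 72.28 Mb, pairs 50 to 500 kb apart had 26.1% of the contact found inside those domains in WT. The share was 25.9% (Inv1), 23.9% (Inv2), 27.0% (Inv3), 28.7% (Inv4) and 26.8% (Inv1DelCTCF) in the mutants, and over the 6 limb bud maps the log2 value ran from -2.06 to -1.80. In Inv1 ESC it was 31.9%, a log2 value of -1.65 ± 0.014, measured at the WT position, which is 80 kb off the stem cell border. Across 71.60 Mb the share was 47.8% in WT and 46.0% to 50.7% in the limb bud mutants, but 60.5% in Inv1 ESC. This stem cell value lay outside the limb bud range by more than counting error, with log2 values of -0.73 ± 0.012 in Inv1 ESC and -0.98 ± 0.028 in Inv4, the nearest limb bud map. Across 72.91 Mb the share was 54.7% in WT, 46.6% to 54.5% in the limb mutants and 56.6% in Inv1 ESC. Across 72.75 Mb it was 73.6% in WT and between 71.5% (Inv1 ESC) and 84.9% (Inv4) elsewhere, so most contact passed this border in every map.

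Contact between the domains was also set against the expected. Contact of the second domain (71.61 to 72.28 Mb) with the third (72.29 to 72.91 Mb) was 0.465 ± 0.004 of the expected in WT, and 0.440 to 0.491 in the other 6 maps. The first domain, though farther away, was not as low against the third: its contact with it was 1.01 ± 0.012 of the expected in WT and 0.906 to 0.988 in the others. Contact of the first with the second domain was 1.31 ± 0.008 in WT, 1.29 to 1.33 in the limb mutants and 1.43 ± 0.008 in Inv1 ESC. Inside the second domain it was 1.48 ± 0.006 in WT and 1.41 to 1.48 in the limb bud mutants, against 1.27 ± 0.005 in Inv1 ESC. With domains drawn at the WT borders, the stem cells thus had less mean contact within the second domain and more between it and the first. So drawn, the second domain included bins past the stem cell border at 72.20 Mb. It also held the segment from 71.61 to 71.71 Mb described below. The means do not show that contact fell throughout the domain.

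The 70 kb between the border positions of stem cells and limb buds contacted opposite sides in the 2 tissues. For the 7 bins from 72.21 to 72.28 Mb, contact with partners 50 to 300 kb away on the centromeric side was compared with that on the telomeric side. In WT it was 0.701 of the expected toward the centromere and 0.463 toward the telomere, a log2 ratio of 0.60 ± 0.031. Inv1 had a ratio of 0.56 ± 0.034, Inv2 of 0.54 ± 0.069, Inv3 of 0.39 ± 0.073, Inv4 of 0.44 ± 0.071 and Inv1DelCTCF of 0.49 ± 0.034. All 6 limb bud maps thus leaned toward the centromere. In Inv1 ESC contact was 0.495 toward the centromere and 0.602 toward the telomere, a log2 ratio of -0.28 ± 0.029. Of the 7 bins, 6 leaned toward the telomere in Inv1 ESC, none in WT, Inv1 and Inv1DelCTCF, 1 in Inv2 and Inv4, and 2 in Inv3, or none of these 3 with the WT share added back. The zone was set by where the borders lay, so its turn restates the shift and is a description. The size depended on reach: with partners up to 200 kb away Inv1 ESC was at -0.52 and the limb bud maps at 0.15 to 0.39, while with partners up to 500 kb Inv1 ESC turned to 0.11 and the limb bud maps were at 0.60 to 0.74.

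**Figure D3:**
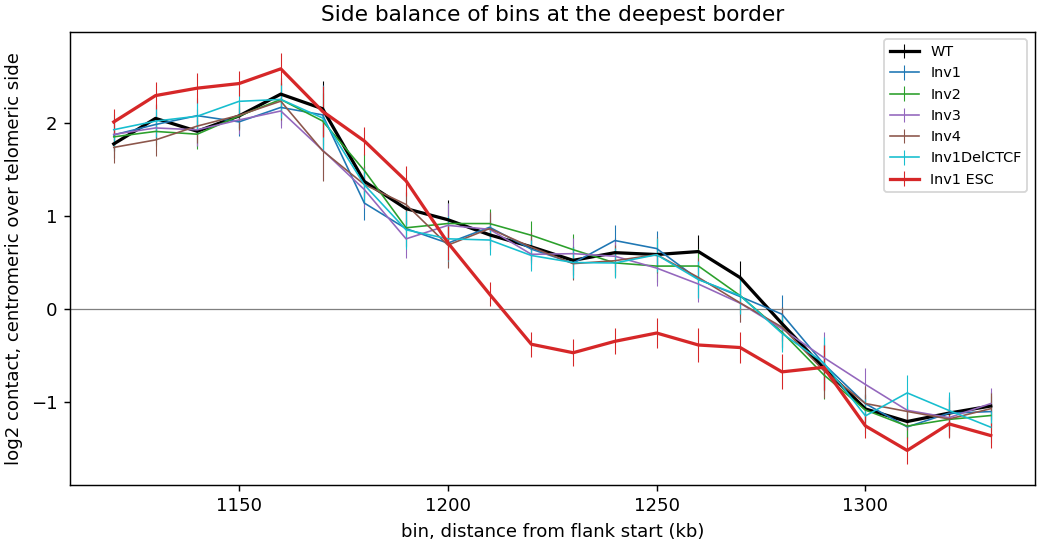
Log2 ratio of contact with partners 50 to 300 kb away on the centromeric over the telomeric side, for 10 kb bins around the deepest border, against distance from the flank start in kb. Lines are the 7 maps, with the WT share added back in Inv2 to Inv4, and bars are 95% counting intervals. From 1220 to 1270 kb the Inv1 ESC line is below 0 and the limb bud lines are above it.

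Stripes ran from 10 anchors in WT, 5 toward the centromere and 5 toward the telomere. The stripe score is the log2 of the contact of a 3-bin anchor with partners 100 to 1000 kb away on 1 side, over that of bins 3 to 8 on either side of the anchor, and a score of 0.2 was required. Partners past the ends of the flank were not used, so anchors near an end had a shorter range. The strongest stripes lay near the borders: from 72.89 Mb toward the centromere (0.73 ± 0.025 in WT), from 72.92 Mb toward the telomere (0.72 ± 0.019) and from 72.17 Mb toward the centromere (0.66 ± 0.024). The 72.89 and 72.92 Mb anchors stand on either side of the 72.91 Mb border and point away from each other. Behind each of these anchors the score was negative in WT, at -0.33 for 72.89 Mb, -0.33 for 72.92 Mb and -0.69 for 72.17 Mb. The bins of reference of the 72.89 and 72.92 Mb anchors lie on both sides of the 72.91 Mb border, and those of the 72.17 Mb anchor on both sides of the stem cell border at 72.20 Mb, so all anchors were also set against all bins at the same distance.

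The 72.17 Mb stripe stood out most against all bins. Its contact was 2.79-fold that of all bins at the same distance in WT, and the fold was 2.81 (Inv1), 2.98 (Inv2), 2.84 (Inv3), 2.56 (Inv4), 2.79 (Inv1DelCTCF) and 2.30 (Inv1 ESC). It crossed the 71.60 Mb border and ran on through the first domain: at 800 to 1090 kb from the anchor the WT contact was 3.35 times the expected, on 1242 read pairs. The neighbouring bins were also high there, at 2.22 times the expected, so the log2 value over them was 0.60 ± 0.053. The fold against all bins thus includes contact that the neighbouring bins share. Over its neighbouring bins Inv1 scored 0.68, Inv2 0.74, Inv3 0.66, Inv4 0.57, Inv1DelCTCF 0.68 and Inv1 ESC 0.53 ± 0.028. The stem cell score was below all limb bud scores, though near that of Inv4 (0.57 ± 0.056). The difference was widest at middle distances. At 500 to 790 kb contact was 3.55 in WT and 3.38 to 3.65 in the limb bud mutants with the WT share added back, against 2.23 in Inv1 ESC. Inv1 ESC was also the lowest at 300 to 490 kb, with 2.44 against 2.56 to 2.87 in the 6 limb bud maps, and at 800 to 1090 kb, with 2.98 ± 0.116 against 3.30 to 3.60. At 100 to 290 kb it was higher in Inv1 ESC, at 1.54, than in the limb bud maps, at 1.22 to 1.33.

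The 2 stripes beside 72.91 Mb differed in how they stood against all bins. How far they reached was not compared, since the flank ends at 73.60 Mb, before 800 kb from the 72.92 Mb anchor. At 500 to 790 kb both were raised over neighbouring bins in WT. The log2 values were 0.82 for 72.89 Mb and, up to the flank end, 0.71 for 72.92 Mb. The 72.92 Mb stripe toward the telomere was 2.04-fold above all bins in WT, 1.71- to 1.97-fold in the limb mutants and 1.64-fold in Inv1 ESC. Its score over neighbouring bins was 0.61 (Inv4) to 0.76 (Inv1DelCTCF) in the limb mutants and 0.76 ± 0.022 in Inv1 ESC. The 72.89 Mb stripe toward the centromere was raised over its neighbours, with scores of 0.64 (Inv4) to 0.78 (Inv3) in the limb mutants and 0.61 ± 0.024 in Inv1 ESC. Against all bins it was at 1.01-fold in WT, 1.06- to 1.15-fold in the limb mutants and 0.991-fold in Inv1 ESC, so it did not stand above them over its whole length. It did so near the anchor, where WT contact at 100 to 290 kb was 1.44 times the expected and that of neighbouring bins 0.701. At 800 to 1090 kb, past the 72.28 Mb border, contact was 0.408 in WT, about that of the neighbouring bins (0.423).

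**Figure D4:**
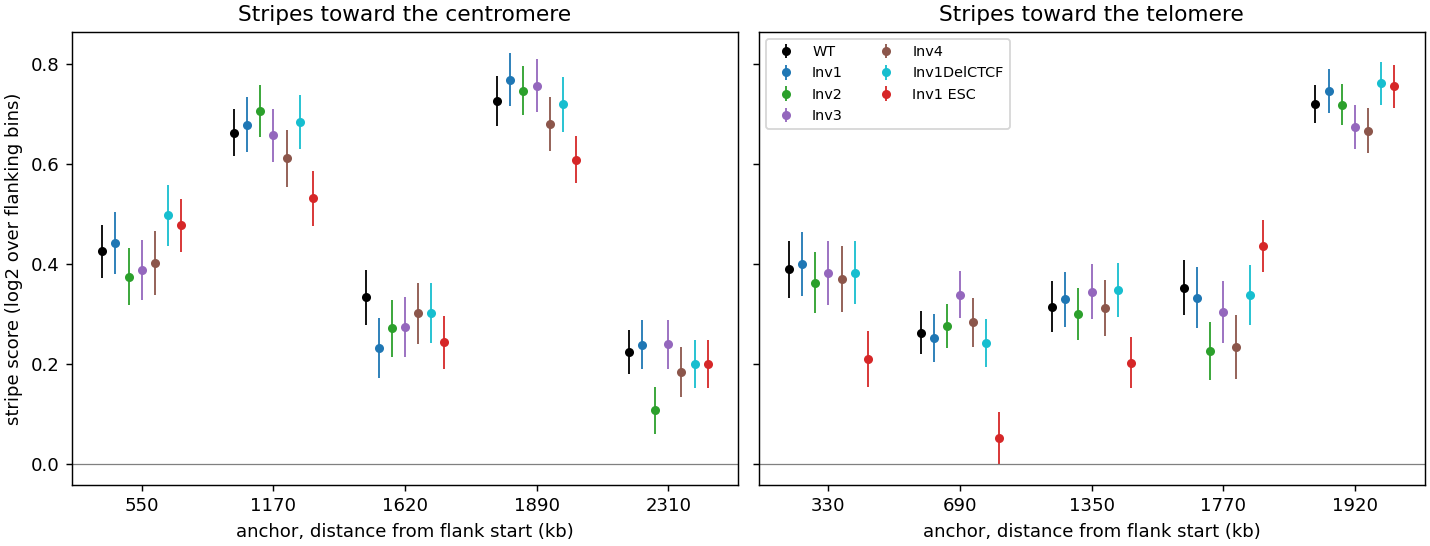
Stripe score (log2 over neighbouring bins) of the 10 WT anchors, by distance from the flank start in kb, toward the centromere and toward the telomere. Points are the 7 maps, with the WT share added back in Inv2 to Inv4, and bars are 95% counting intervals. The anchors at 1170, 1890 and 1920 kb have the highest scores in WT, and the anchor at 690 kb is near 0 in Inv1 ESC.

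The other 7 anchors were weaker, with WT scores of 0.22 to 0.43. Toward the centromere they lay at 71.55 Mb (0.43 ± 0.027), 72.62 Mb (0.33 ± 0.028) and 73.31 Mb (0.22 ± 0.022). Toward the telomere they lay at 71.33 Mb (0.39 ± 0.029), 71.69 Mb (0.26 ± 0.022), 72.35 Mb (0.32 ± 0.026) and 72.77 Mb (0.35 ± 0.028). The 72.62 Mb anchor was below all bins at its distance in every map, at 0.854-fold in WT and 0.772- to 0.832-fold in the others, so it is a ridge within a low stretch. In the limb bud mutants the scores of the 7 anchors were above 0 throughout. The lowest were 0.002 ± 0.050 for 73.31 Mb in Inv2 and 0.11 ± 0.063 and 0.13 ± 0.066 for 72.77 Mb in Inv2 and Inv4. With the WT share added back these 3 were 0.11, 0.23 and 0.23. In the stem cells 3 stripes toward the telomere scored lower over neighbouring bins than in any limb bud map. They were 71.33 Mb at 0.21 ± 0.029, 71.69 Mb at 0.052 ± 0.026 and 72.35 Mb at 0.20 ± 0.026. The limb bud scores were 0.34 to 0.40, 0.24 to 0.40 and 0.29 to 0.37. All were read at the WT anchors. Within 30 kb of these, the best Inv1 ESC scores lay at 71.33, 71.71 and 72.32 Mb. In the limb bud maps they lay at 71.33 or 71.34, 71.69 or 71.70, and 72.35 or 72.36 Mb. A shift of the last 2 anchors in Inv1 ESC was not told apart from weaker stripes. Against all bins 71.69 and 72.35 Mb were also lowest in Inv1 ESC, at 1.11- and 1.13-fold, against 1.47 to 1.61 and 1.30 to 1.41. By that measure 71.33 Mb was not: it was 1.47-fold, within the limb bud range of 1.45 to 1.53. The 72.77 Mb stripe scored higher over neighbouring bins in Inv1 ESC, at 0.44 ± 0.027, than in the limb bud maps. Against all bins it was 1.13-fold there, within the limb bud range of 0.997 to 1.17. Near 72.2 Mb the best score toward the telomere was at 72.30 Mb, at 0.25 ± 0.031 in WT, 0.12 to 0.26 in the limb mutants and 0.25 ± 0.030 in Inv1 ESC. It was within 0.987- to 1.12-fold of all bins at its distance in the 7 maps.

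Focal contacts tied several of these anchors together. A focal contact is a WT maximum of the mean of 3 by 3 bins over the ring around it, of at least 1.5-fold and at least 150 kb apart. There were 46, of which 10 rested on at least 100 WT read pairs (a limit set after the data were seen). The other 36 rested on 13 to 74 WT read pairs, and with the WT share added back 1 to 5 of them reached 1.5-fold in another limb bud map. Since they were picked as maxima in WT, WT values are a description.

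Of these 10, 5 reached 1.5-fold in every limb bud map as deposited. Between 72.92 and 73.31 Mb, both stripe anchors facing each other, contact over the ring was 2.12-fold in WT, with folds of 2.197 (Inv1), 2.004 (Inv2), 2.14 (Inv3), 1.57 (Inv4), 2.35 (Inv1DelCTCF) and 2.09 (Inv1 ESC) elsewhere. This contact did not set the stem cells apart from limb buds. Between 72.75 and 72.90 Mb, across the small subdomain, it was 2.201-fold in WT, 2.24- to 2.64-fold in the limb mutants and 2.64-fold in Inv1 ESC. Between 72.36 and 72.89 Mb it was 1.95-fold in WT, 2.14- to 2.52-fold in the limb mutants and 1.60-fold in Inv1 ESC. Between 71.33 and 72.18 Mb, over 850 kb and the 71.60 Mb border, it was 2.02-fold in WT, 1.65- to 2.27-fold in the limb mutants and 1.69-fold in Inv1 ESC. Other contacts with many read pairs were weaker. Between 71.33 and 71.56 Mb (789 WT read pairs) it was 1.56-fold in WT, 1.25-fold (Inv4) to 1.72-fold (Inv1DelCTCF) in the limb mutants and 1.39-fold in Inv1 ESC. Between 72.36 and 72.63 Mb (724 WT read pairs) it was 1.63-fold in WT, 1.49-fold (Inv4) to 1.69-fold (Inv3) in the limb mutants and 1.25-fold in Inv1 ESC. At least 1.5-fold was reached by 4 of the 10 in Inv1 ESC and by 7 or 8 in each limb bud mutant with the WT share added back.

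One focal contact differed most between the stem cells and Inv1 limb buds by its contact over the expected. Between 71.69 and 72.16 Mb, near both ends of the second domain, contact was 5.89 times the expected in WT (868 read pairs). Inv1 stood at 5.51, Inv2 at 6.11, Inv3 at 7.002, Inv4 at 4.91 and Inv1DelCTCF at 6.05, while Inv1 ESC stood at 2.82 (338 read pairs). Over its ring the log2 value was 0.94 ± 0.062 in WT, 0.82 to 1.19 in the limb mutants and 0.46 ± 0.099 in Inv1 ESC. Over the ring another contact fell further, that between 71.09 and 72.18 Mb, but on fewer read pairs (140 in WT and 80 in Inv1 ESC): its log2 value was 0.63 ± 0.140 in WT, 0.49 ± 0.160 in Inv1, 0.042 (Inv3) to 0.80 (Inv2) in the other limb mutants and -0.11 ± 0.183 in Inv1 ESC. Between 72.36 and 72.89 Mb the log2 value went from 1.10 ± 0.086 in Inv1 (355 read pairs) to 0.68 ± 0.089 in Inv1 ESC (319 read pairs). That fall was about as large as the one between 71.69 and 72.16 Mb, from 0.86 ± 0.071 in Inv1. The left anchor of the contact between 71.69 and 72.16 Mb is the 71.69 Mb bin whose stripe score was near 0 in the stem cells.

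This anchor lies in a 100 kb segment at the start of the second domain, 71.61 to 71.71 Mb. The segment had less contact with both neighbours in the stem cells than in the limb buds. The segment was singled out after its values were seen. Its contact with the rest of the second domain (71.76 to 72.20 Mb) was 1.86 ± 0.015 of the expected in WT. Inv1 had 1.81 ± 0.016, Inv2 had 1.69 ± 0.032, Inv3 had 1.83 ± 0.034, Inv4 had 1.69 ± 0.033 and Inv1DelCTCF had 1.81 ± 0.017. In Inv1 ESC it was 1.10 ± 0.011, below all limb bud maps by many times the counting error. Its contact with the first domain (71.00 to 71.56 Mb) was 0.852 in WT and 0.782 to 0.891 in the limb mutants, and 0.646 ± 0.009 in Inv1 ESC. Contact inside the segment, in contrast, was 1.60 ± 0.018 in Inv1 ESC and 1.15 to 1.496 in the limb bud maps. The stretches on either side of the segment met more often in the stem cells: contact of 71.00 to 71.56 Mb with 71.76 to 72.20 Mb was 1.66 ± 0.012, against 1.30 to 1.33 in the 6 limb bud maps. Without its outermost bins the segment gave 1.03 with the second domain and 0.601 with the first in Inv1 ESC. The level along the segment had its minimum inside it: at 71.66 Mb contact with 71.85 to 72.15 Mb was 0.7098 in Inv1 ESC.

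**Figure D5:**
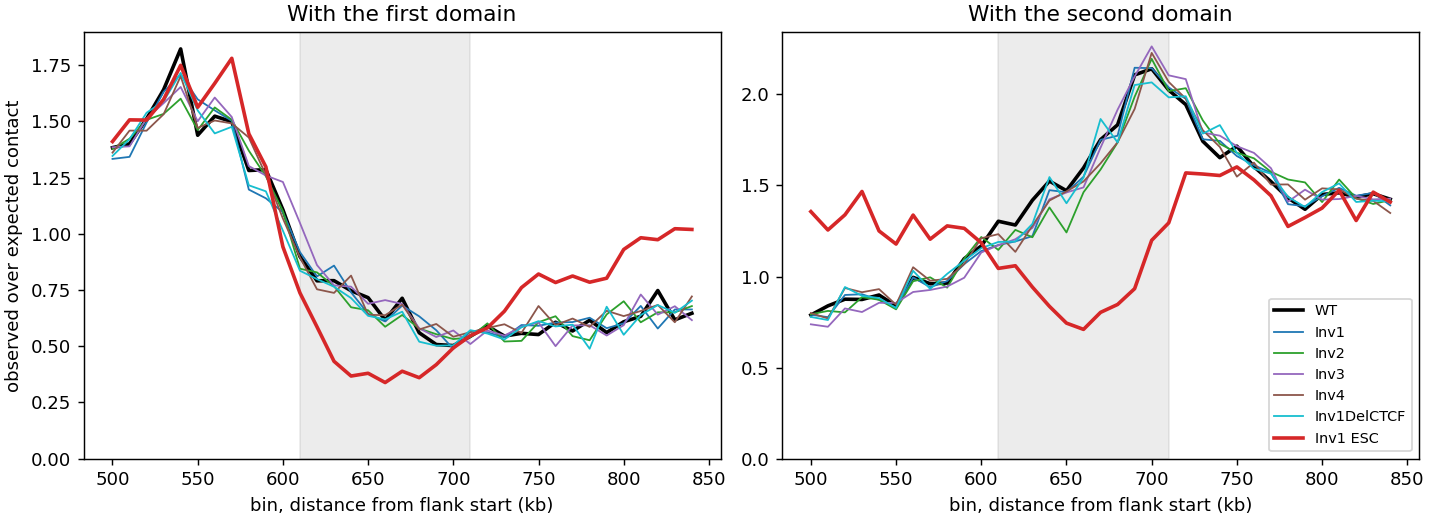
Observed over expected contact of 10 kb bins with a stretch of the first domain (left) and of the second (right), against distance from the flank start in kb, for the 7 maps with the WT share added back in Inv2 to Inv4. The shaded segment runs from 610 to 710 kb. From 620 to 690 kb the Inv1 ESC line is the lowest in both panels, while the limb bud lines lie together.

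Over the whole flank the limb bud maps differed little beyond counting error, and the stem cell map differed more. Contact was averaged in 50 kb blocks, of which 1260 pairs 50 to 2000 kb apart lie in the flank. Across these block pairs, which share libraries and are not replicates, Inv1 correlated with WT at r = 0.967. The log2 ratio had an SD of 0.189, where counting error alone gives 0.181. For Inv1DelCTCF against Inv1 the SD was 0.199 against a counting error of 0.189. For Inv2, Inv3 and Inv4 against WT it was 0.414, 0.407 and 0.340 against counting errors of 0.4002, 0.384 and 0.332, and with the WT share added back 0.195, 0.201 and 0.189 against 0.177, 0.182 and 0.182. The errors as deposited leave out that the subtracted WT read pairs are also those of the WT map, so they are too small. For Inv1 ESC against Inv1 it was 0.363 against 0.184, with r = 0.876. The r of Inv2, Inv3 and Inv4 with WT was 0.881, 0.876 and 0.897 as deposited, near the stem cell value. With the WT share added back it was 0.968, 0.964 and 0.967. The spread of the limb bud ratios was thus within 1.10 times counting error, and that of the stem cells was 1.97 times.

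A block pair was called where its ratio passed 1.5-fold and the 95% counting interval. In the flank 7 pairs (0.556%) were called for Inv1 over WT, against 1.15% of the 5400 block pairs tested outside the inversions. The counts were 36, 37 and 34 of 1260 for Inv2, Inv3 and Inv4 over WT (over all pairs 2.61%, 2.98% and 2.87%), or 17, 13 and 17 with the WT share added back (1.41%, 1.31% and 1.33%). As deposited, their intervals leave out the WT read pairs shared by both sides of the ratio and are too narrow. The counts were 12 for Inv1DelCTCF over WT (1.39%) and 18 for Inv1DelCTCF over Inv1 (1.37%). As shares of the flank these were 2.86%, 2.94% and 2.698% as deposited, 1.35%, 1.03% and 1.35% with the WT share added back, and 0.952% and 1.43% for Inv1DelCTCF. The shares of Inv2 as deposited, Inv4 with the WT share added back and Inv1DelCTCF over Inv1 were above those of all block pairs and the others were below them. For Inv1 ESC over Inv1, 124 flank pairs were called, 67 higher and 57 lower, which is 9.84%. Over all block pairs 12.9% were called, 7.72% higher and 5.17% lower, and outside the flank 13.8%. With a pseudocount of 0.5 in place of 0.1, chosen after the data were seen, the stem cell share was 2.14%.

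The called pairs of the stem cells gathered at a few blocks. Each block named here takes part in 51 block pairs. Of all flank pairs 9.84% were called, 67 of the 124 higher, and of all block pairs outside the inversions 12.9%. The block from 72.25 to 72.30 Mb, at the limb bud border, took part in 25 of them, of which 24 were lower in Inv1 ESC. The block from 71.65 to 71.70 Mb, in the segment, took part in 12, all lower. The blocks from 71.85 to 72.05 Mb, in the second domain, were mostly higher, as in 11 of 13 pairs for 72.00 to 72.05 Mb.

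Genes of the centromeric side had low contact with the enhancer region in the deposited gene tables, which give a scaled contact of each gene start with that region in WT and Inv1 to Inv4. Of 103 genes, 23 precede Tns1 in table order and by RefSeq order (GRCm38.p6). They run from Bard1, a partner of the tumour suppressor Brca1, over Fn1 (fibronectin) and the insulin-like growth factor binding protein genes Igfbp2 and Igfbp5 to Mir6351. Bins of the maps were not assigned to genes here. In WT the values ran from 0, listed for Atic, Gm8883 and March4, to 0.574 for Abca12, a lipid transporter gene, with a median of 0.188 against 0.447 for all genes. Medians in Inv1, Inv2, Inv3 and Inv4 were 0.293, 0.022, 0.256 and 0.514, against 1.01, 0.438, 1.23 and 1.88 for all genes of those tables, which were scaled one by one. On a scale of log2(value + 0.5), with negative values set to 0 first, 1 gene was over 2-fold above WT in Inv1 (35.9% of all genes), 4 in Inv3 (45.6%) and 6 in Inv4 (52.4%), and 1 was over 2-fold below in Inv2 (16.5%) and 2 in Inv3 (10.7%). None was so in all 4 inversions. The gene above WT in Inv1 was Igfbp2, with 0.213 (WT), 1.21 (Inv1), -0.197 (Inv2), 1.499 (Inv3) and 0.915 (Inv4). The gene below in Inv2 was Abca12, with 0.216 (Inv1), -0.542 (Inv2), -0.596 (Inv3) and 0.705 (Inv4). The 4 above WT in Inv3 were Igfbp2, March4, Atic and D530049I02Rik and the 2 below were Abca12 and 6030407O03Rik. The 6 above WT in Inv4 were Gm8883, March4, Smarcal1, Igfbp5, Tnp1 and 1700027A15Rik. These were named after their values were seen. All 3 calls below WT were of genes with negative values. The 23 genes include 3 pairs that share all values (Fn1 and Apol7d, Pecr and Tmem169, Tnp1 and 1700027A15Rik), so they are fewer than 23 measurements. The counts depended on the pseudocount. With 0.05 they were 15, 15, 18 and 13 in either direction for Inv1 to Inv4, where 68.9%, 68.9%, 82.5% and 79.6% of all genes passed. With 5 they were 0, where 17.5%, 6.8%, 4.85% and 12.6% of all genes passed.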

How the data were processed

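Capture Hi-C contact maps of 7 libraries, 1 per condition, were used. Per the labels, DpnII fragments were captured, and per the submitters' processing notes reads were mapped to mm9 with Bowtie2 2.2.6 and maps made with Juicer. The authors' deposited maps hold a balanced contact signal per pair of 10 kb bins for WT, Inv1, Inv1DelCTCF and Inv1 ESC. The deposited Inv2 to Inv4 maps are a score with negative values. The deposited gene tables hold a scaled contact score. Settings of balancing and scaling are not given in the sources used here.

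Signals of the first 4 maps were whole read pairs times a factor per bin: 100% of values under 20 lay within 0.1 of a whole number, so read pairs and counting errors could be recovered. Adding a share of WT to Inv2 to Inv4 made 99.9% whole. Block means and gene scores below 0 were set to 0 before a log2 ratio was taken. Expected contact was the mean per distance in the flank, and that of all bins outside the inversions for block pairs. Bins with fewer listed pairs than 25% of the median were to be left out, and the flank had 0. The rule for naming genes was the highest and lowest WT value and a change past 2-fold in all inversions. Genes past 2-fold in any inversion were also named, after their values were seen. Members and lists were chosen with earlier results of these data known. Scripts ran in Python 3.11.15 with numpy 2.4.6 and pandas 2.3.3 and were tested on simulated data.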

Additional observations from a re-analysis of the deposited data

How the results depend on the processing

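Over 700 values under alternatives, 12 changed direction. Set against all bins at its distance, not against its neighbours, the 72.62 Mb stripe toward the centromere was at -0.23 in WT, -0.30 for Inv1, -0.37 for Inv2, -0.31 for Inv3, -0.27 for Inv4, -0.27 for Inv1DelCTCF and -0.28 for Inv1 ESC. By the same measure Inv1 ESC was at -0.012 for 72.89 Mb and -0.019 for 72.30 Mb toward the telomere, and Inv4 at -0.0038 for 72.77 Mb. The 71.69 Mb stripe toward the telomere was at -0.14 in Inv1 ESC at 100 to 500 kb, and the side balance of the border zone in Inv1 ESC at 0.11 with partners to 500 kb.

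Among borders, a 100 kb square gave 7 in WT, 7 of them matched in Inv1, Inv3 and Inv4 and 6 in Inv1 ESC, and a 300 kb square left 2 matched in Inv4. The log2 contact across 72.28 Mb was -1.59 in WT and -1.28 in Inv1 ESC for pairs 50 to 250 kb apart, -1.67 and -1.45 for pairs to 1000 kb, and -2.07 and -1.61 for unbalanced read pairs. Contact across this WT position thus remained higher in Inv1 ESC than in WT in all 3. The stem cell border lay 80 kb away, at 72.20 Mb, so these values do not compare the borders themselves. Their depths were 2.12 in WT and 2.06 in Inv1 ESC.

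The 72.17 Mb stripe scored 0.52 in WT at 100 to 500 kb, 0.71 with a 1-bin anchor and 1.48 against all bins, and in Inv1 ESC 0.46 at 100 to 1500 kb and 1.20 against all bins. The 72.89 Mb stripe scored 0.85 in WT and 0.82 in Inv1 ESC at 100 to 500 kb, 0.60 and 0.43 at 100 to 1500 kb, and in WT 0.78 with a 1-bin anchor and 0.012 against all bins. The 72.92 Mb stripe scored 0.83 in WT with a 1-bin anchor and 1.03 against all bins, and in Inv1 ESC 0.84 at 100 to 500 kb and 0.71 against all bins. Of 46 focal maxima, 10 had 100 WT read pairs. The side balance was 0.35 in WT and -0.52 in Inv1 ESC with partners to 200 kb, and 0.74 in WT with partners to 500 kb.

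The share of block pairs called moved with the block size, the reach and the pseudocount. With 100 kb blocks it was 0% for Inv1 and Inv1DelCTCF over WT and for Inv1DelCTCF over Inv1, 1.29% for Inv3 and 0.323% for Inv4. With pairs to 1000 kb it was 0% for Inv1, 1.81% for Inv3, 1.20% for Inv4, 0.120% for Inv1DelCTCF over WT and 0.241% over Inv1. With a pseudocount of 0.5 it was 0% for Inv1 and Inv1DelCTCF over WT, 1.35% for Inv2, 1.51% for Inv3, 0.794% for Inv4, 0.238% for Inv1DelCTCF over Inv1 and 2.14% for Inv1 ESC over Inv1. With the WT share added back it was 1.35%, 1.03% and 1.35% for Inv2 to Inv4. Flank genes past 2-fold were 4 in Inv1 after centring on the median gene, 15, 15, 18 and 13 with a pseudocount of 0.05, and 0 in each inversion with one of 5. Leaving no bin out gave the same maps, since none had been left out.

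Causes of these moves were not tested. Of the remaining values, 308 of single stripes, borders or contacts and 56 of counts or main comparisons stayed within their counting error or 1.5 times their count. Without a change of direction, 264 of the former and 60 of the latter moved, so more of the counts and main comparisons moved than stayed. No paired analysis was possible because each condition has 1 library, which also leaves no replicate to leave out. The pseudocount of 0.5, the limit of 100 read pairs and the other reaches of the side balance were chosen after seeing the data. Depth limits long distances, where a bin pair holds few read pairs, and the subtraction in Inv2 to Inv4 widens their counting errors about 2 times.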
